A study of Rattus norvegicus with 59 samples.

Results

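The genes described here are 6 helix-loop-helix transcription regulators of the rat brain: Id1, Id2 and Id3, Hes1 and Hes5, and Neurod1. Their probe sets were taken from an Affymetrix rat expression array by gene symbol alone. The 6 genes themselves were chosen with earlier results of these data known. Every probe set whose single gene symbol in the array annotation was one of the 6 names was kept, which gave 11 of the 8740 probe sets that are not controls, and 6 of the 4737 genes that have a probe set with 1 symbol. The study measured total RNA in 5 brain regions of adult male rats from 2 inbred lines that were selected for opposite alcohol preference: iP5C (iP), which prefers alcohol, and iNP1 (iNP), which does not. There were 6 iP and 6 iNP rats, each region of each rat was hybridised to its own array, and 59 arrays were analysed. Each region had 6 iP and 6 iNP arrays, except cortex with 5 iP and 6 iNP arrays. The 59 arrays of the study hold no cortex array of animal 6, an iP rat. All rats were housed in pairs with free food and water and were accustomed to handling before decapitation. The labels name no alcohol exposure or other treatment. Each line is a single inbred strain, so a difference between the lines is a difference between 2 strains.

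Helix-loop-helix proteins work in pairs. Neurod1 is an activator that binds DNA with E proteins such as Tcf3, Tcf4 and Tcf12, drives neuronal differentiation and is needed for granule neurons of the dentate gyrus of the hippocampus. Id proteins have the pairing domain without the DNA-binding part, so they hold E proteins in inactive pairs, and bone morphogenetic protein (BMP) signalling through SMAD proteins is a known inducer of them. Hes1 and Hes5 are repressors that Notch signalling switches on through the DNA-binding protein Rbpj, and in neural progenitors they hold back neurogenic genes; in the adult brain Id and Hes transcripts are known from glia, vessels and the neurogenic zones, and Id2 also from neurons.

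The promoters of the Hes genes are printed because both carry the letters GTGGGAA, the core that Rbpj binds. The sequences are the 250 bases before to the 50 bases after the start of each gene, from RefSeq on the GRCr8 build, where all 6 genes were matched by symbol. Matches to GTGGGAA on either strand are in capitals. Hes1 lies on the minus strand at chr11:84212996-84213295 and has 1 match, which begins 124 bases before the start. Hes5 lies on the plus strand at chr5:170804327-170804626 and has 2 matches, which begin 242 bases before the start on the minus strand and 99 bases before it on the plus strand.
Hes1: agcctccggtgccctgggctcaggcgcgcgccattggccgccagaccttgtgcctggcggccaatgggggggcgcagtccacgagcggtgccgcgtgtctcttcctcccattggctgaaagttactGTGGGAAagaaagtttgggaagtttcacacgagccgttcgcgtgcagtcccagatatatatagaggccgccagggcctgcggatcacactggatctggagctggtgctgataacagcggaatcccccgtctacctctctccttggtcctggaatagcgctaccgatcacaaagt
Hes5: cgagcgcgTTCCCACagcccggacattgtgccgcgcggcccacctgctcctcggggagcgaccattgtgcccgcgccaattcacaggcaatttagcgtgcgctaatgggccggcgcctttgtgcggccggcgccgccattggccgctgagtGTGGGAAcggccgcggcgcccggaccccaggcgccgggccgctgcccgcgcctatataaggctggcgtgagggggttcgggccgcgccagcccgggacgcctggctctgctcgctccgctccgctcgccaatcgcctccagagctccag
Of 33469 promoter windows of this length, 6.29% hold at least 1 such match and 0.236% hold 2 or more. The windows of Id1, Id2, Id3 and Neurod1 hold none. The letters CACNAG on either strand, the N box that Hes proteins bind, occur 4 times in the Hes1 window and once each in those of Id2 and Neurod1, and in 43.1% of all windows. The letters CANNTG, the E box, occur once each in the windows of Id1, Id2, Hes5 and Neurod1, and in 72.1% of all windows. No match of one motif overlapped a match of another, and a match describes the letters only.

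Signals were deposited on a linear scale and are given here as log2 signal. Of the 11 probe sets, 10 passed the filter on low signal; the probe set D12516_g_at of Hes5 did not and was not tested. The median signal of an array lay between 254 and 393. By correlation with the mean profile of each region, 54 arrays were nearest their own region and 5 were nearest another. Of iP rats these were the cortex array of animal 5 and the accumbens array of animal 4, both nearest amygdala, and the amygdala array of animal 1, nearest cortex. Of iNP rats they were the amygdala arrays of animals 7 and 8, which came nearest accumbens. The 3′ over 5′ ratio of the Gapdh control was 6.14 (log2) on the cortex array of iP animal 5 and -0.15 to 0.44 on the other arrays. As a check of the region labels, markers of medium spiny neurons stood above the average of the remaining regions in striatum (11 of 12) and in accumbens (12 of 12). Of all tested probe sets, 13.9% were called in striatum and 20.9% in accumbens, in either direction. Line and region were taken from the titles and the genotype label, since the source name gives iNP for every array. In these pieces of tissue, fewer cells of a type and less RNA per cell cannot be told apart.

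**Figure D1:**
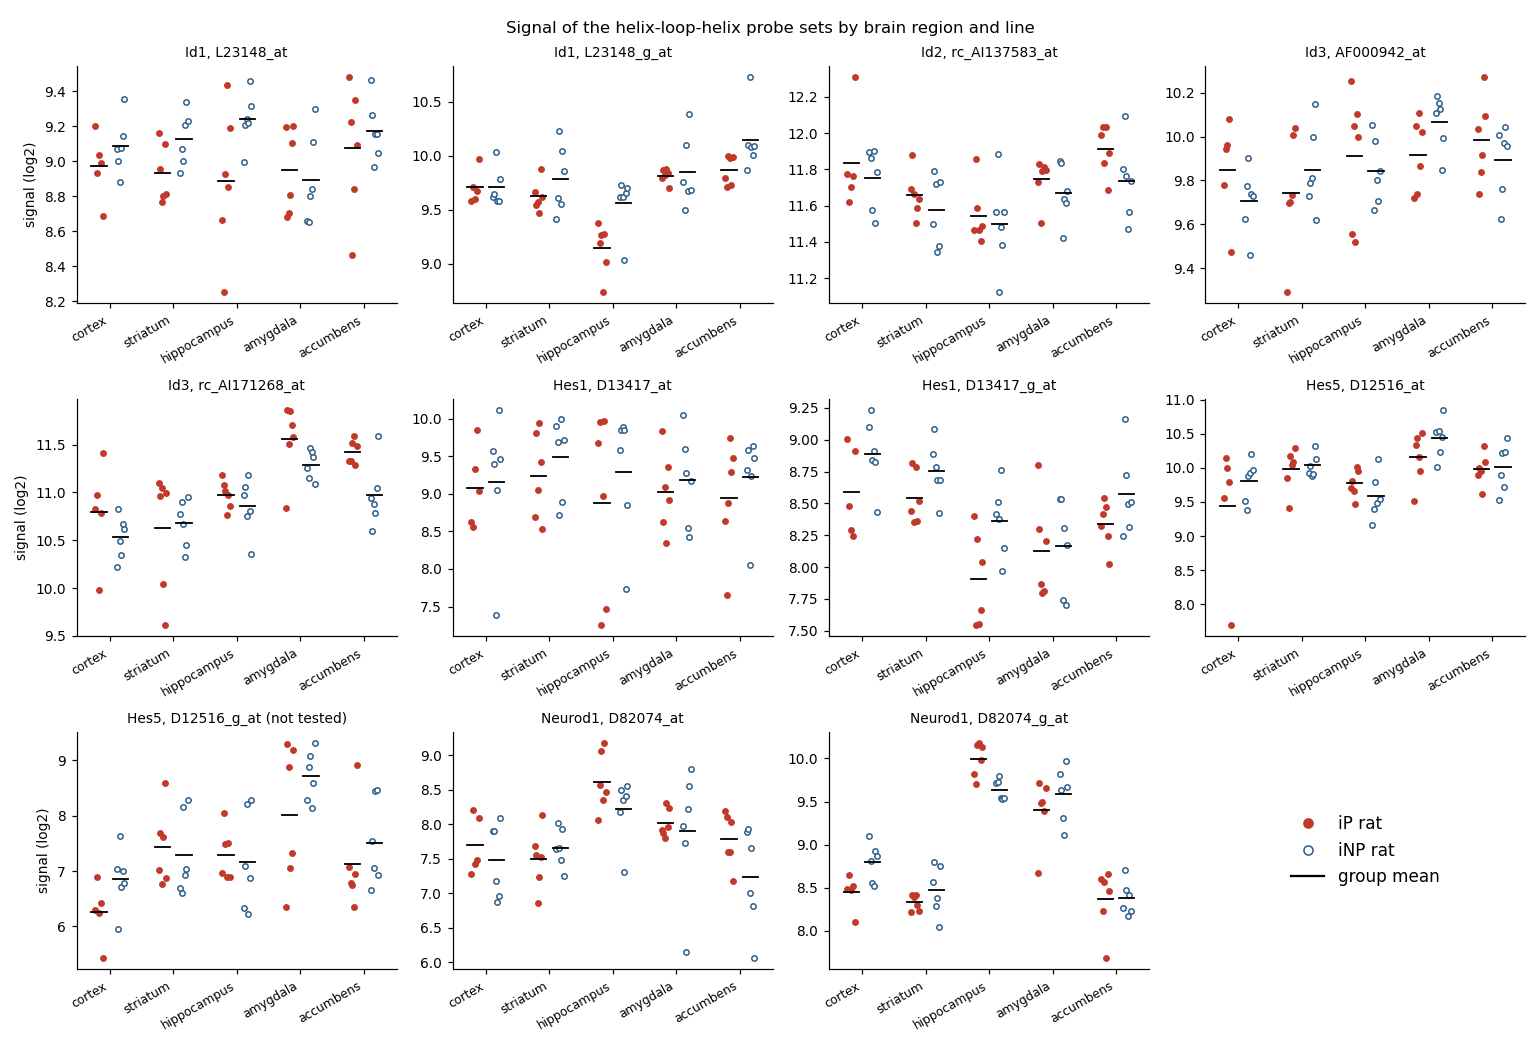
Log2 signal of each of the 11 probe sets (vertical axis) in 5 brain regions (horizontal axis), with 1 point per rat, iP rats as filled points left of iNP rats as open points, and bars for group means; each panel has its own scale. The Neurod1 probe set D82074_g_at is highest in hippocampus (9.53 to 10.18) and amygdala, while the points of the lines overlap in every region of every tested probe set.

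All 6 genes had a call in at least 1 brain region, through 1 probe set each except Neurod1, which had calls through both. A region was compared with the average of the remaining 4, with the animal as a block, and called at a limma adjusted p under 0.05 over the 5244 probe sets tested. Hippocampus had 5 of the 10 tested probe sets called, where 23.3% of all tested probe sets were. Amygdala had 4 of 10, against 26.1% of all. Cortex had 3 of 10, against 17%, striatum 3 of 10, against 13.9%, and accumbens 3 of 10, against 20.9%. In each region the members' share was above that of all probe sets. With 10 probe sets, of which some share a sequence record, and genes chosen with earlier results known, this was not tested. The one called difference over 1 on the log2 scale was Neurod1 in hippocampus. Called differences that large made up 2.12% of all tested probe sets in hippocampus, 1.51% in amygdala, 1.01% in cortex, 0.839% in striatum and 1.22% in accumbens. Between single regions, cortex differed in 8.47% of all probe sets from striatum, in 21.5% from hippocampus, in 22.6% from amygdala and in 22.8% from accumbens. Striatum differed in 18.2% from hippocampus, in 24.3% from amygdala and in 14.1% from accumbens, hippocampus in 23.2% from amygdala and in 23.6% from accumbens, and amygdala in 20.5% from accumbens. Over these 10 pairs, Neurod1 D82074_g_at was called in 7 pairs, Id1 L23148_g_at and Hes1 D13417_g_at in 6 each and Id3 rc_AI171268_at in 5. Id2 was called in 4, Neurod1 D82074_at in 3 and Hes5 in 2. The probe sets Id1 L23148_at, Id3 AF000942_at and Hes1 D13417_at were called in 0 pairs. A tested probe set was called in a median of 1 pair.

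**Figure D2:**
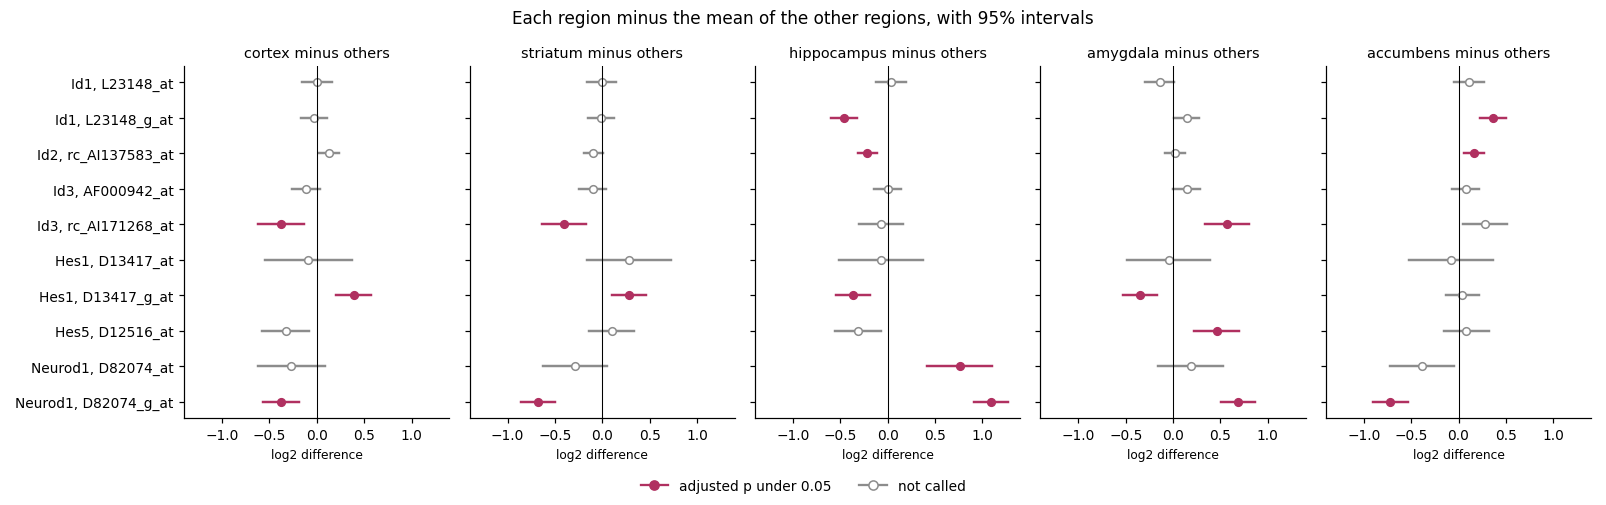
Difference in log2 signal between each region and the mean of the other regions (horizontal axis) for the 10 tested probe sets (rows), with 95% intervals from limma; filled points passed an adjusted p of 0.05. Neurod1 stands highest in hippocampus at 1.09 and lowest in accumbens at -0.72, Id3 rc_AI171268_at is highest in amygdala at 0.57, and Hes1 and Hes5 point opposite ways in amygdala at -0.35 and 0.46.

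Among the Id genes, Id1 was low in hippocampus and high in accumbens. Its probe set L23148_g_at had log2 signals of 8.73, 9.33 and 9.73 (lowest, median and highest of 12 arrays) in hippocampus. In accumbens they were 9.71, 9.99 and 10.73, and over amygdala, cortex and striatum the arrays lay between 9.41 and 10.39. Hippocampus and accumbens overlapped only at their edges. Hippocampus was lower than the mean of the other regions by a log2 difference of -0.46 ± 0.07 (SE, 12 rats; limma adjusted p = 2.73e-07), in 11 of 12 rats. Accumbens was higher by 0.36 ± 0.07 (limma adjusted p = 3.51e-05), also in 11 of 12 rats. In the order of mean levels, accumbens at 10.01 came first, followed by amygdala at 9.83, cortex and striatum at 9.71 each and hippocampus at 9.35. Amygdala differed from accumbens by -0.17, which did not pass (limma adjusted p = 0.144), nor did any difference among amygdala, cortex and striatum; hippocampus was lower than every other region by the test. Without the 5 arrays nearest another region the hippocampus difference was -0.46 and the accumbens difference 0.34, and amygdala was then called higher as well (0.20, limma adjusted p = 0.0289).

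The second Id1 probe set, L23148_at, lies on the same sequence record and did not follow this pattern. Its mean levels ran from 8.92 in amygdala to 9.13 in accumbens, and it was called in no region and no pair of regions. In hippocampus it differed from the other regions by 0.03, with a 95% interval of -0.12 to 0.19 that leaves out the -0.46 of L23148_g_at. Of 9 tested endothelial and mural cell markers, 2 were higher and 7 not called in accumbens, where 20.9% of all tested probe sets were called, and 2 were lower and 7 not called in hippocampus, where 23.3% were. Both times these were Acta2 and Tagln, contractile proteins of smooth muscle, at 1.15 and 0.93 in accumbens and at -0.73 and -0.37 in hippocampus. The summed signal of the 9 markers (log2) lay between 12.74 and 13.31 in accumbens, against 12.40 to 13.06 in the other regions. It lay between 12.40 and 12.90 in hippocampus, against 12.43 to 13.31 elsewhere. Their part in the Id1 result was not tested.

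Id2, an Id protein of neurons and glia, was also lower in hippocampus and higher in accumbens, with smaller differences than Id1 L23148_g_at. Its one probe set, rc_AI137583_at, had log2 signals of 11.12, 11.48 and 11.88 (lowest, median and highest) in hippocampus and of 11.47, 11.82 and 12.09 in accumbens, so the regions overlapped widely. The remaining 3 regions lay between 11.35 and 12.31. Hippocampus was lower than the other regions by -0.21 ± 0.05 (limma adjusted p = 0.00115; 11 of 12 rats) and accumbens higher by 0.16 ± 0.05 (limma adjusted p = 0.0160; 10 of 12 rats). These are 1.16-fold and 1.12-fold differences. The accumbens call was lost without animal 4 (0.14, limma adjusted p = 0.0596), and without the 5 arrays nearest another region the differences were -0.20 in hippocampus and 0.16 in accumbens. The order of means was accumbens at 11.82, cortex at 11.79, amygdala at 11.71, striatum at 11.62 and hippocampus at 11.52, and no neighbours in that order differed by the test.

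Id3 was highest in amygdala and lowest in cortex and striatum by the means of both probe sets, with calls through 1 of the 2. The probe set rc_AI171268_at had log2 signals of 10.83, 11.44 and 11.86 (lowest, median and highest) in amygdala. They were 9.61, 10.83 and 11.10 in striatum. In cortex the 5 iP rats had 10.83, 10.98, 9.98, 10.78 and 11.41, and the 6 iNP rats lay between 10.22 and 10.82. The 9.61 and a 10.04 in striatum, both of iP rats, and the 9.98 in cortex stood below all other arrays, and the 11.41 was that of the cortex array with the high Gapdh ratio. Amygdala was higher than the other regions by 0.57 ± 0.12 (limma adjusted p = 0.000159; 11 of 12 rats). Striatum was lower by -0.40 ± 0.12 (limma adjusted p = 0.0126) and cortex by -0.38 ± 0.12 (limma adjusted p = 0.0207). Accumbens differed by 0.28 and was not called (limma adjusted p = 0.0763). Without the 5 arrays nearest another region the differences were 0.74 in amygdala, -0.40 in striatum and -0.50 in cortex. The cortex call was lost without animal 3 (-0.29, limma adjusted p = 0.112), animal 7 or animal 10. The striatum call was lost without animal 4 (-0.33, limma adjusted p = 0.0592) or animal 5 (-0.28, limma adjusted p = 0.0690).

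The order of mean levels of rc_AI171268_at was amygdala at 11.42, accumbens at 11.20, hippocampus at 10.92 and then striatum and cortex at 10.65 each. No neighbours in that order differed by the test, while hippocampus was lower than amygdala by -0.51 (limma adjusted p = 0.00717). The other Id3 probe set, AF000942_at, comes from a different sequence record and was called in no region. Its means ran in the same order, at 9.99 in amygdala, 9.94 in accumbens, 9.88 in hippocampus, 9.80 in striatum and 9.77 in cortex. Its largest difference from the other regions was 0.14 in amygdala (limma adjusted p = 0.131). The 95% interval of 0.00 to 0.29 does not reach the 0.57 of rc_AI171268_at. In amygdala, where 26.1% of all tested probe sets were called, 10 astrocyte markers were tested. Of these 2 were higher (Aldh1l1 at 0.52 and Aldoc at 0.19), 1 was lower (Slc1a2 at -0.31) and 7 were not called. Their summed signal (log2) lay between 16.29 and 16.63 in amygdala, against 16.12 to 16.61 in the other regions, and their part in the Id3 result was not tested.

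The Hes genes differed from each other in amygdala. Hes1 D13417_g_at had log2 signals of 7.70, 8.19 and 8.80 (lowest, median and highest) in amygdala and of 7.54, 8.19 and 8.76 in hippocampus. In striatum they were 8.35, 8.68 and 9.08. In cortex the 5 iP rats had 9.00, 8.48, 8.29, 8.24 and 8.91, and the 6 iNP rats had 8.43, 8.88 and 9.23 as lowest, median and highest. Cortex and striatum together ran from 8.24 upward and hippocampus and amygdala reached 8.80, so the high and the low regions overlapped. Cortex was higher than the other regions by 0.39 ± 0.09 (limma adjusted p = 0.00121), in 11 of 11 rats, and striatum by 0.28 ± 0.09 (limma adjusted p = 0.0227), in 11 of 12 rats. Hippocampus was lower by -0.36 ± 0.09 (limma adjusted p = 0.00121) and amygdala by -0.35 ± 0.09 (limma adjusted p = 0.00217). Without the 5 arrays nearest another region these were 0.37 in cortex, 0.32 in striatum, -0.33 in hippocampus and -0.40 in amygdala. The striatum call was lost without animal 2 (0.25, limma adjusted p = 0.0560), without animal 4 (0.24, limma adjusted p = 0.0770) and with no animal block (0.28, limma adjusted p = 0.0769).

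Mean levels of Hes1 D13417_g_at were 8.75 in cortex, 8.65 in striatum, 8.46 in accumbens, 8.15 in amygdala and 8.13 in hippocampus. Amygdala was lower than accumbens by -0.31 (limma adjusted p = 0.0391), and the other neighbours in this order did not differ by the test. The probe set D13417_at, on the same sequence record, ranged from 7.25 to 10.12 over the 59 arrays and was called nowhere. Its SD over the hippocampus arrays was 1.04, against 0.39 for D13417_g_at, and its 95% interval for hippocampus minus the other regions ran from -0.51 to 0.38.

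Hes5 was highest in amygdala. Its tested probe set D12516_at had log2 signals of 9.52, 10.39 and 10.85 (lowest, median and highest) in amygdala, against 9.16, 9.69 and 10.13 in hippocampus. In cortex the 5 iP rats had 9.57, 10.14, 10.00, 9.80 and 7.69, and the 6 iNP rats lay between 9.39 and 10.20. The 7.69 was that of the cortex array with the high Gapdh ratio, and the 9.52 in amygdala that of the array nearest cortex. Amygdala was higher than the other regions by 0.46 ± 0.12 (limma adjusted p = 0.00277; 11 of 12 rats), and by 0.42 ± 0.08 without the 5 arrays nearest another region. Hippocampus differed by -0.31 ± 0.12 and just missed the threshold (limma adjusted p = 0.0505), and without those 5 arrays it passed at -0.37 ± 0.07 (limma adjusted p = 3.06e-05). Cortex differed by -0.33 with all arrays and by -0.13 without the 5, and passed neither time. Mean levels were 10.30 in amygdala, 10.01 in striatum, 9.99 in accumbens, 9.68 in hippocampus and 9.64 in cortex. No neighbours in this order differed by the test, while hippocampus and cortex were both lower than amygdala, by -0.62 and -0.63 (limma adjusted p = 0.00136 and 0.00169). The probe set left out by the filter, D12516_g_at, lies on the same record and had a mean of 8.36 in amygdala, where its arrays ran from 6.35 to 9.31. Fitted without the filter, it was higher in amygdala by 1.23 and lower in cortex by -0.95 (limma adjusted p = 6.85e-05 and 0.00410).

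Neurod1 was highest in hippocampus, then in amygdala. Its probe set D82074_g_at had log2 signals of 9.53, 9.76 and 10.18 (lowest, median and highest) in hippocampus. They were 8.67, 9.57 and 9.97 in amygdala, and in cortex, striatum and accumbens together no array was above 9.10. Every hippocampus array lay above every array of those 3 regions, and so did every amygdala array but that of iP animal 1, which was nearest cortex. Hippocampus was higher than the mean of the other regions by 1.09 ± 0.09 (a 2.13-fold difference; limma adjusted p = 4.48e-14), in 12 of 12 rats. Amygdala was higher by 0.69 ± 0.09 (1.61-fold; limma adjusted p = 3.63e-08), in 11 of 12 rats. Without the 5 arrays nearest another region these were 1.05 and 0.72.

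At the low end, D82074_g_at had 7.68, 8.44 and 8.70 in accumbens and 8.04, 8.38 and 8.80 in striatum. In cortex the 5 iP rats had 8.48, 8.65, 8.47, 8.52 and 8.10, and the 6 iNP rats had 8.52, 8.83 and 9.10 as lowest, median and highest. Accumbens was lower than the other regions by -0.72 ± 0.09, striatum by -0.68 ± 0.09 and cortex by -0.38 ± 0.09 (limma adjusted p = 1.26e-08, 1.05e-07 and 0.00239). Accumbens and striatum were lower in 12 of 12 rats each and cortex in 10 of 11. Without the 5 arrays the differences were -0.68, -0.73 and -0.35. Medium spiny neuron markers moved the other way: their summed signal (log2) lay between 15.31 and 15.68 in accumbens and between 15.28 and 16.08 in striatum, against 13.70 to 14.96 in the remaining regions. Of 2 tested markers of cortical projection neurons 1 was lower in accumbens (Nrgn, -1.29), and it was higher in cortex (0.65), striatum (0.33) and hippocampus (0.24). The other marker was not called in these regions. Of all tested probe sets, 20.9% were called in accumbens, 17% in cortex, 13.9% in striatum and 23.3% in hippocampus. The part of these marker genes in the Neurod1 result was not tested. The order of means of D82074_g_at was hippocampus at 9.82, amygdala at 9.49, cortex at 8.63, striatum at 8.40 and accumbens at 8.37. Hippocampus was higher than amygdala by 0.32 (limma adjusted p = 0.0306), and cortex differed from amygdala by -0.85 (limma adjusted p = 1.25e-07). Cortex and striatum, and striatum and accumbens, did not differ by the test.

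The second Neurod1 probe set, D82074_at, lies on the same record, so it is no separate check. It had 7.31, 8.44 and 9.17 (lowest, median and highest) in hippocampus, while the other regions ran from 6.06 to 8.80 and overlapped with it. It was higher in hippocampus by 0.76 ± 0.17 (1.69-fold; limma adjusted p = 0.000432), in 11 of 12 rats, and was called in no other region. In amygdala it differed by 0.18, with a 95% interval of -0.15 to 0.52. Of the 4 tested markers of dentate and other hippocampal neurons, 3 were higher in hippocampus, namely Epha7 (1.42), Grik4 (1.39) and Neurod2 (0.55), and Calb1 was lower (-0.60). In amygdala Epha7 (-1.01) and Grik4 (-1.01) were lower and Calb1 (0.63) higher. The summed signal of the 4 (log2) lay between 11.88 and 12.26 in hippocampus, against 11.31 to 12.60 elsewhere. The marker counts in this paragraph stand against 23.3% of all tested probe sets called in hippocampus and 26.1% in amygdala. Ttr, a marker of choroid plexus, was higher in hippocampus by 4.40, with 2 of 4 choroid plexus and ependymal markers higher, 1 lower and 1 not called. Oligodendrocyte markers also moved with these regions: 5 of 8 were higher, 1 was lower and 2 were not called in hippocampus, and 1 was higher, 6 were lower and 1 was not called in amygdala. Their summed signal (log2) lay between 16.29 and 16.96 in hippocampus, against 14.92 to 16.66 elsewhere, and between 15.03 and 16.44 in amygdala, against 14.92 to 16.96 elsewhere. The part of these cell types in the Neurod1 result, and in the Hes results of the same regions, was not tested.

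Between the lines, 1 of the 10 tested probe sets was called when each rat's regions were averaged after removal of the regional means, where 2.65% of all tested probe sets were called. It was Id3 rc_AI171268_at. The 6 iP rats had means of 11.06, 11.25, 11.02, 11.01, 11.00 and 11.15, against 10.84, 10.91, 10.86, 10.82, 10.87 and 10.93 in the 6 iNP rats. Every iP rat lay above every iNP rat; 2.84% of all tested probe sets had no overlap between the lines in either direction. The mean of iP animal 6 rests on 4 regions, without cortex. The difference was 0.21 ± 0.05 (SE, 6 iP and 6 iNP rats; a 1.16-fold difference; limma adjusted p = 0.0390). The other Id3 probe set, AF000942_at, did not share it. Its means were 9.82, 9.80, 9.86, 9.87, 9.95 and 10.01 in iP rats and 9.91, 9.81, 9.92, 9.87, 9.90 and 9.83 in iNP rats, a difference of 0.01 with a 95% interval of -0.10 to 0.12.

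**Figure D3:**
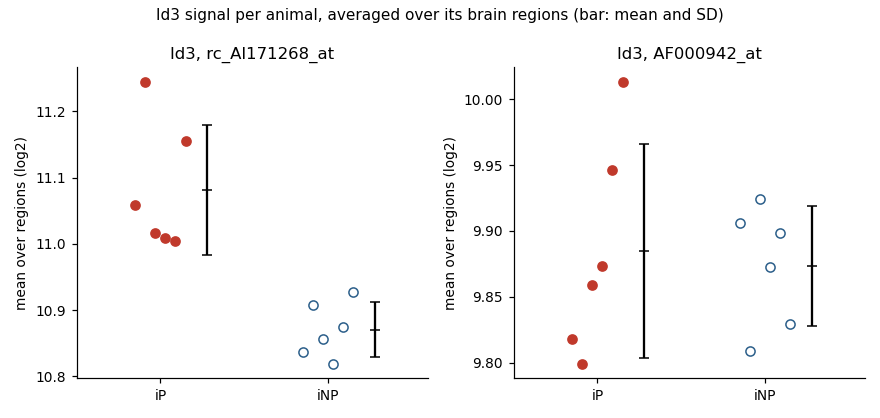
Mean log2 signal of each rat over its brain regions (vertical axis), after removal of the regional means, for both Id3 probe sets in iP and iNP rats; bars give the mean and SD of 6 rats. By rc_AI171268_at the iP rats (11.00 to 11.25) lie above all iNP rats (10.82 to 10.93), and by AF000942_at the lines overlap.

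The Id3 call was a narrow one. It was lost in 12 of 21 alternative settings, in all of which the difference stayed between 0.17 and 0.23 and the limma adjusted p between 0.0250 and 0.402. It was lost without the arrays of cortex of iP animal 5 and amygdala of iP animal 1 (0.21, limma adjusted p = 0.156) and without the 5 arrays nearest another region (0.17, limma adjusted p = 0.402). Leaving out 1 rat lost it for iP animals 2, 4 and 6 and for each of the 6 iNP animals, with limma adjusted p from 0.0517 to 0.103. It was also lost with no intensity trend in the variance (limma adjusted p = 0.0549). Between the lines over all regions, limma called 2.65% of all tested probe sets, and 11.9% had an unadjusted p under 0.05. Among the 10 tested astrocyte markers 0 were called between the lines by limma and 2 had an unadjusted p under 0.05. Their summed signal lay between 16.22 and 16.63 in iP arrays and between 16.12 and 16.57 in iNP arrays. Of 9 tested endothelial and mural cell markers, 1 was lower in iP (Pecam1, an endothelial adhesion molecule, by -0.47) and 8 were not called. Their summed signal lay between 12.43 and 13.28 in iP arrays and between 12.40 and 13.31 in iNP arrays. Of 6 tested microglial markers, 1 was lower in iP over all regions (P2ry12, an ADP receptor of microglia, by -0.76) and 5 were not called, and P2ry12 was also lower in iP in hippocampus (-0.93) and amygdala (-0.61). The summed microglial signal lay between 11.51 and 12.26 in iP arrays and between 11.75 and 12.31 in iNP arrays. The part of these cell types in the line results was not tested.

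None of the other 9 probe sets passed the test over all regions. Hes1 D13417_g_at differed by -0.25 ± 0.11 (limma adjusted p = 0.370), with rat means from 8.17 to 8.59 in iP and from 8.24 to 8.90 in iNP. Id1 L23148_g_at differed by -0.18 ± 0.08 (limma adjusted p = 0.406). Both had an unadjusted p under 0.05, as 11.9% of all tested probe sets did. The remaining differences were -0.14 for Id1 L23148_at, 0.09 for Id2, -0.25 for Hes1 D13417_at, -0.10 for Hes5, 0.22 for Neurod1 D82074_at and -0.06 for Neurod1 D82074_g_at. The last of these had a 95% interval of -0.22 to 0.11. The median over the 10 members was -0.08, and -0.01 over all tested probe sets.

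**Figure D4:**
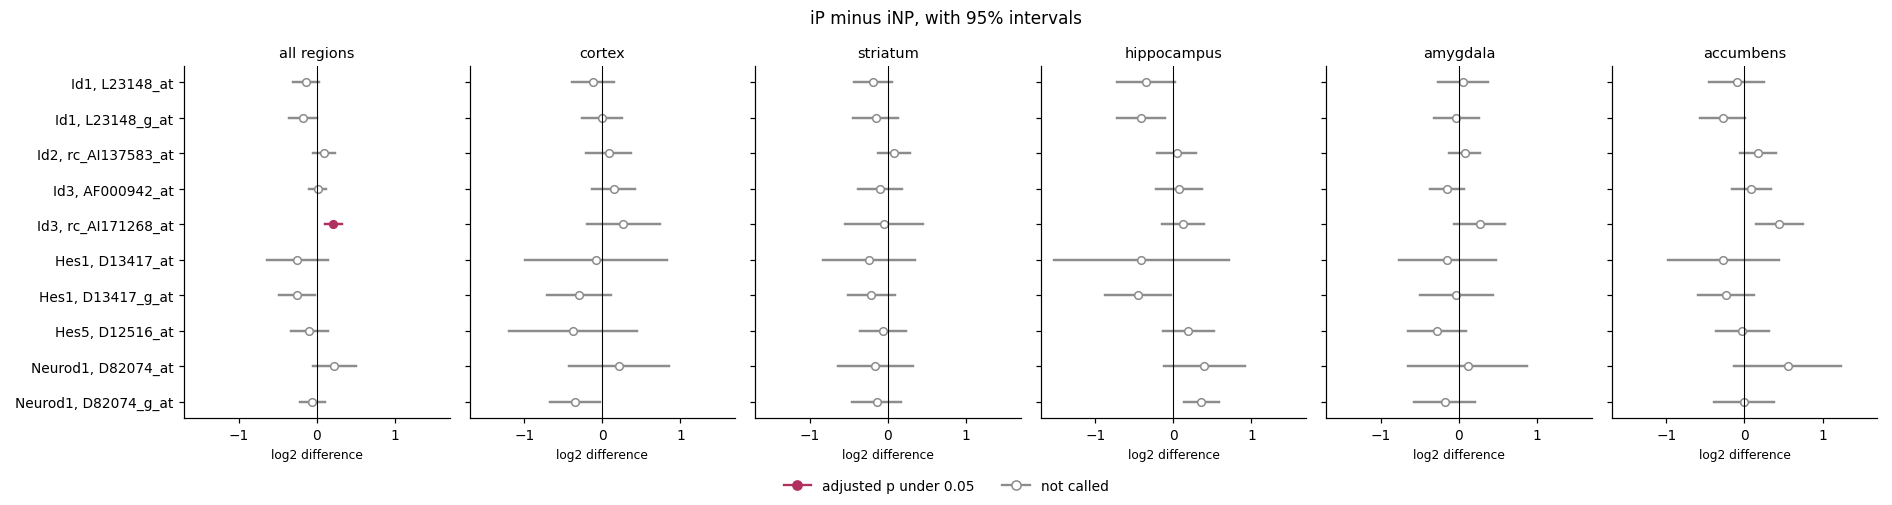
Difference in log2 signal between iP and iNP rats (horizontal axis) over all regions and in each region for the 10 tested probe sets (rows), with 95% intervals from limma; the filled point passed an adjusted p of 0.05. Only Id3 rc_AI171268_at over all regions, at 0.21, is filled, and the widest interval is that of Hes1 D13417_at in hippocampus, from -1.53 to 0.71.

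Within single regions 0 of 50 line tests on the members passed by limma, and 5 had an unadjusted p under 0.05; one joint fit over all arrays also gave 0, with or without the animal as a random block. Of all tested probe sets, 0.667% were called in hippocampus, 0.725% in amygdala, 0.572% in accumbens, 0.229% in cortex and 0.839% in striatum. An unadjusted p under 0.05 was found for 7% in hippocampus, 8.75% in amygdala, 7.06% in accumbens, 5.26% in cortex and 8.01% in striatum. The lines overlapped in all 50 member comparisons, and failed to overlap for 1.28% of all tested probe sets in hippocampus, 1.14% in amygdala, 1.07% in accumbens, 1.22% in cortex and 1.43% in striatum. In hippocampus Neurod1 D82074_g_at had 9.71, 10.05 and 10.18 (lowest, median and highest) in iP rats, against 9.53, 9.63 and 9.79 in iNP rats. Of the 6 iP rats 5 lay above all iNP rats, with a difference of 0.36 ± 0.10 (limma adjusted p = 0.262). In cortex the same probe set differed the other way, by -0.35 ± 0.15 (limma adjusted p = 0.850), with the values given above. The lowest iP value there, 8.10, was that of the cortex array with the high Gapdh ratio. The other Neurod1 probe set, D82074_at, was higher in iP in both regions by the means. These were 8.61 in iP and 8.22 in iNP rats in hippocampus, and 7.70 and 7.48 in cortex. The line by region interaction of D82074_g_at, a moderated F test over all regions, had an unadjusted p of 0.0292 and a limma adjusted p of 0.956. The line differences of hippocampus and cortex were not compared with each other alone.

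Id1 L23148_g_at in hippocampus had 8.73, 9.23 and 9.38 in iP rats, against 9.03, 9.64 and 9.73 in iNP rats. One iNP rat, animal 10 at 9.03, lay among the iP rats, and the other 5 iNP rats were above all iP rats, from 9.61 to 9.73. The difference was -0.42 ± 0.14 (limma adjusted p = 0.416), and by L23148_at it was -0.35 ± 0.17 (limma adjusted p = 0.723). Hes1 D13417_g_at in hippocampus had 7.54, 7.85 and 8.40 in iP rats, against 7.97, 8.40 and 8.76 in iNP rats. Its difference was -0.46 ± 0.20 (limma adjusted p = 0.637), and that of D13417_at was -0.41 ± 0.52 (limma adjusted p = 0.920). Id3 rc_AI171268_at in accumbens had 11.29, 11.41 and 11.59 in iP rats, against 10.59, 10.91 and 11.59 in iNP rats. Its lines overlapped through 1 iNP rat, animal 12. The difference was 0.45 ± 0.14 (limma adjusted p = 0.328), and without animal 12 it was called at 0.57 (limma adjusted p = 0.0216). By AF000942_at the accumbens difference was 0.09 ± 0.11 (limma adjusted p = 0.891). By the interaction test 0 of 10 members passed by limma, with adjusted p from 0.956 upward, and 1 had an unadjusted p under 0.05. Of all tested probe sets 0% passed and 4.61% had an unadjusted p under 0.05.

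The 2 probe sets of a gene tracked each other to very different degrees. Over the 59 arrays, which share rats and regions, Pearson's r was 0.57 for Hes5 and 0.56 for Neurod1, 0.22 for Id3, 0.18 for Hes1 and 0.00 for Id1. After the mean of each line and region was removed it was 0.36 for Hes5, 0.20 for Neurod1, 0.11 for Hes1, -0.12 for Id3 and -0.23 for Id1. The calls of Id1, Id3 and Hes1 each rest on 1 probe set, and the other one was not called. For Id3 the regional means of both probe sets ran in the same order. Hes1 D13417_at differed by 0.28 in striatum and -0.09 in cortex, against 0.28 and 0.39 by D13417_g_at. Between genes, the lowest correlations of Neurod1 D82074_g_at over all arrays were -0.51 with Hes1 D13417_g_at and -0.45 with Id1 L23148_g_at. Within groups these were -0.03 and -0.12. The other probe sets of these genes gave -0.07 (Hes1 D13417_at) and -0.08 (Id1 L23148_at) over all arrays. Hes5 gave 0.12 by D12516_at and 0.33 by D12516_g_at. Id2 gave -0.31, and Id3 gave 0.17 by AF000942_at and 0.22 by rc_AI171268_at.

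**Figure D5:**
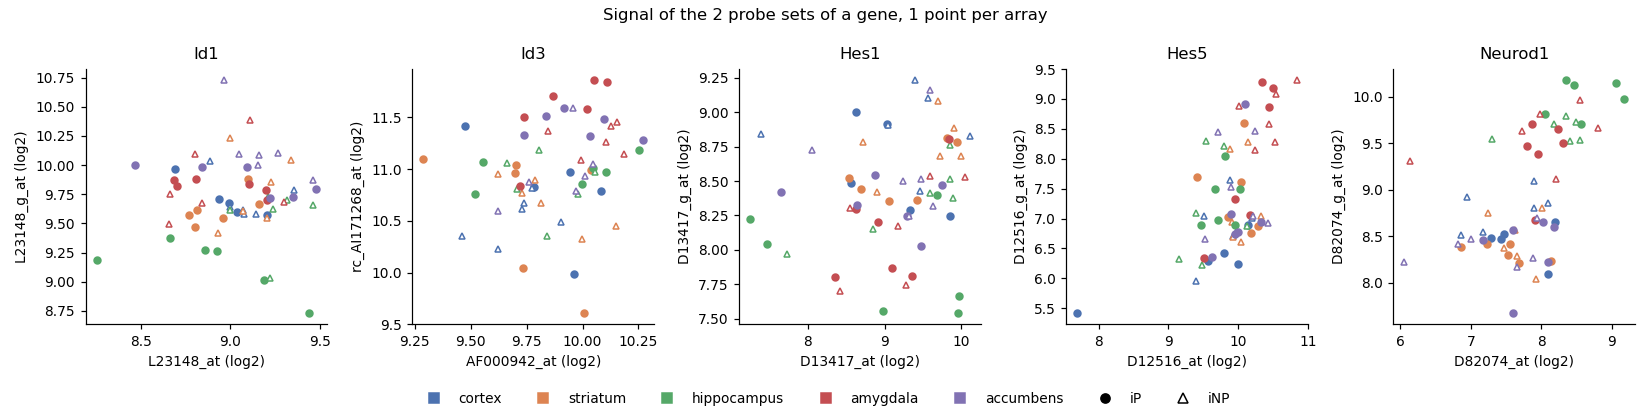
Log2 signal of the 2 probe sets of Id1, Id3, Hes1, Hes5 and Neurod1 (axes), with 1 point per array, coloured by region, iP filled circles and iNP open triangles. The Hes5 and Neurod1 points rise together (r = 0.57 and 0.56), with 1 cortex array of an iP rat far down in Hes5, and the Id1 points show no trend (r = 0.00).

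For the brightest tested probe set of each gene, the 3 most similar probe sets of other genes were sought by Pearson's r over the 59 arrays, as a description. The arrays include cortex of iP animal 5, which stood far from its group in Id2 and Hes5, and likeness without it was not computed. Between Id2 and Hes5 D12516_at themselves, r was -0.33 over all arrays. It was -0.10 without that array and amygdala of iP animal 1. Nearest to Neurod1 D82074_g_at were Ntf3, the growth factor neurotrophin 3 (r = 0.85), the death receptor gene Tnfrsf21 (0.82) and the transcription factor gene Jun (0.81). Within groups these were 0.43, 0.04 and 0.20. Nearest to Id1 L23148_g_at were the fibronectin gene Fn1 (0.68), the collagen gene Col3a1 (0.68) and the transcription factor gene Klf4 (0.67), which had 0.15, 0.28 and 0.46 within groups. Id3 rc_AI171268_at was nearest to Dbi, an acyl-CoA-binding protein (0.80), to the G protein gene Gnai2 (0.77) and to Sparc, a matrix protein (0.76), with 0.60, 0.62 and 0.55 within groups. Id2 was nearest to the proteasome subunit gene Psma2 (0.76), the translation factor gene Eif5 (0.74) and the ATP synthase subunit gene Atp5f1a (0.74), with 0.77, 0.71 and 0.79 within groups. Hes5 was nearest to 2 probe sets of the guanine deaminase gene Gda (0.74 each) and to the potassium channel gene Kcnd3 (0.71), with 0.68 for both and 0.70 within groups. For Hes1 D13417_at the highest were 0.36 for the phospholipase gene Pld2, 0.35 for Prp2 and 0.34 for the ATP receptor gene P2rx4.

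The other genes of the family and its pathways were described from 3 lists. Of 32 listed helix-loop-helix partners and relatives 14 were on the array and 8 were tested; of 34 genes of the Notch pathway 18 and 14; and of 33 of the BMP and SMAD pathway 24 and 10. In none of the 3 lists was a gene called by limma between the lines over all regions, where 2.65% of all tested probe sets were, or in a single region. Over all regions 1, 0 and 0 genes had an unadjusted p under 0.05, and the medians were -0.01, -0.03 and -0.03. Within single regions 3 of 40, 4 of 70 and 1 of 50 tests had an unadjusted p under 0.05. The closest was Tcf4, an E protein, at -0.44 (limma adjusted p = 0.0929). Between regions the counts below stand against 23.3% of all tested probe sets called in hippocampus, 26.1% in amygdala, 20.9% in accumbens, 17% in cortex and 13.9% in striatum, and several lie near or below these shares.

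In hippocampus 3 of the 8 helix-loop-helix genes were higher and 5 were not called. These were the E proteins Tcf4 (0.58) and Tcf12 (0.28), which pair with Neurod1, and Neurod2 (0.55), its relative in mature neurons, which is also 1 of the hippocampal markers above. Of the 10 BMP and SMAD genes 5 were lower there and 5 were not called, with a median of -0.23 against 0.01 over all tested probe sets. They were Nog, which encodes the BMP antagonist noggin (-0.81), the ligand genes Tgfb1 (-0.71) and Bmp6 (-0.42), the receptor gene Bmpr1a (-0.62) and the signal transducer gene Smad2 (-0.30). This list mixes BMP genes with TGF-beta genes such as Tgfb1. Its genes Bmp2, Bmp4, Bmp7, Smad1 and Smad9 were on the array but not tested. Of the 14 Notch genes 2 were higher there, Tle1 (0.97), a corepressor that Hes proteins recruit, and its short relative Tle5 (0.12), and 12 were not called.

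In amygdala 1 Notch gene was higher (Tle5, 0.10), 4 were lower and 9 were not called. The lower ones were Rbpj (-0.36), the Notch-cleaving proteases Adam10 (-0.39) and Adam17 (-0.41), and the corepressor gene Tle4 (-0.67). Of the BMP and SMAD genes Nog (0.69) and Bmp6 (0.50) were higher there, Smad3 (-0.37) was lower and 7 were not called. Of the helix-loop-helix genes Bhlhe41 (0.18) was higher, Tcf12 (-0.43) and Hand1 (-0.35) were lower and 5 were not called. In accumbens Bmp6 was higher (0.46) and the other 9 BMP and SMAD genes were not called, a share below the 20.9% of all tested probe sets. In that region Bhlhe41 (0.18) and Tcf12 (0.33) were higher, Neurod2 (-0.39) and the clock-linked repressor gene Bhlhe40 (-0.56) were lower and 4 helix-loop-helix genes were not called. Of the Notch genes Psen2 (0.29) and Tle4 (0.17) were higher in accumbens, Tle1 (-0.18) and Tle5 (-0.10) lower and 10 not called.

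In cortex 3 Notch genes were lower and 11 were not called. They were Tle1 (-0.60), Psen2, a catalytic subunit of the Notch-cleaving gamma-secretase (-0.25), and the histone deacetylase gene Hdac2 (-0.24). Nog (0.33) was the 1 of the 10 BMP and SMAD genes called in cortex, and Bhlhe40 (0.55) was higher and Bhlhe41 (-0.46) lower there. In striatum 0 of the 8 helix-loop-helix genes passed by limma, 1 had an unadjusted p under 0.05, and Tle4 (0.38) was the 1 Notch gene called. Of the BMP and SMAD genes Smad2 (0.24) was higher in striatum, Nog (-0.35) and Bmp6 (-0.43) were lower and 7 were not called.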

How the data were processed

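Total RNA was hybridised per rat and region to an Affymetrix rat array, per the labels' protocols. The authors deposited 1 linear intensity per probe set and array, scaled to a common level; which program made it is not stated in the labels. That scaling was kept. After a floor of 16 the values were log2 transformed, 59 control probe sets and the 40% with the lowest mean (log2 under 7.65) were left out, and 5244 of 8799 probe sets entered the tests, made with limma 3.58.1 (R 4.3.3; empirical Bayes with an intensity trend, two-sided, Benjamini-Hochberg adjustment over all of them). Line tests used 1 mean per animal or each region alone; region tests had the animal as a fixed block, and the interaction was a moderated F test. The pairing rests on the animal numbers in the titles; residuals of arrays of 1 animal correlated with a mean of 0.0574, against -0.00319 between animals, and 5 of 12 animals had a mean below 0. The fits were tested on simulated data. Every member probe set is described. Called members of a list could be named, all where 6 or fewer were called and otherwise the 3 largest each way, each by its brightest probe set. Some marker lists are given as counts only or for chosen regions, and of the choroid plexus markers only Ttr is named. The members, lists and settings were chosen with earlier results of these data known. Arrays hold no read depth; the number of rats limits precision. Coordinates are those of GRCr8 promoters in RefSeq, and probe positions are not used here.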

Additional observations from a re-analysis of the deposited data

Results flagged for a closer look

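Of 110 checks of 1 array against the others of its group, 10 stood apart, where chance alone flags about 1 in 20 (5.5 of 110). They came from 6 arrays. Cortex of iP animal 5 was far from the other iP cortex arrays in Hes5 D12516_at (7.69 log2 signal, the others 9.57 to 10.14) and in Id2 (12.31, the others 11.62 to 11.78). Amygdala of iP animal 1 was below the other iP amygdala arrays in Neurod1 D82074_g_at (8.67, the others 9.39 to 9.71) and in Id3 rc_AI171268_at (10.83, the others 11.51 to 11.86). These are the array with the high Gapdh ratio and the amygdala array nearest cortex. Hippocampus of iNP animal 10 was below its group in Id1 L23148_g_at (9.03, the others 9.61 to 9.73) and in Neurod1 D82074_at (7.31, the others 8.18 to 8.55). Accumbens of iNP animal 9 was above its group in Id1 L23148_g_at (10.73, the others 9.87 to 10.10) and below it in Hes1 D13417_at (8.06, the others 9.24 to 9.64). Amygdala of iP animal 3 was below its group in Id2 (11.51, the others 11.73 to 11.83), and accumbens of iP animal 6 was above it in Hes5 D12516_g_at (8.92, the others 6.35 to 7.07).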

How the results depend on the processing

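Of the 19 called values of the members, the alternatives kept 386, lost 21 and reversed 0, and 19 calls were gained among the 91 values not called. The line count over all regions, 1 of 10, was 0 without the 2 arrays that stood apart, 0 without the 5 arrays nearest another region (a setting chosen after seeing the data), 0 with no intensity trend and 0 to 1 with each animal left out in turn. The count within single regions was 0 in every setting but without animal 12, with a range of 0 to 1 over animals left out, and 0 in joint fits with a random replicate block or with no replicate block. The interaction count was 0 to 0 with animals left out. The count of region calls, 18 of 50, was 9 of the 35 still tested when 60% of probe sets were dropped, 17 with no replicate block and 15 to 20 with animals left out. That of region pairs, 33 of 100, was 17 of 70 with 60% dropped, 29 with no replicate block and 29 to 35 with animals left out. The cause of these shifts was not tested, apart from the fewer probe sets tested at 60%. Signal over background is unknown, so low probe sets such as Hes5 D12516_g_at carry the least weight.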
